A study of Mus musculus with 2 samples.

Results

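Hmgcs1, Idi1, Fdps, Fdft1, Sqle, Insig1 and Scd2 are 7 genes of sterol and fatty acid synthesis, chosen by name. All of them carried at least 1 listed m6A position with 20 or more reads in replicate 2, as did 3919 of the 8057 genes listed in that library (48.6%). Together they held 34 of the 16212 sites of that library, where a site is a listed position with at least 20 reads. Of the 34, 24 also had at least 20 reads in replicate 1.

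The material was poly(A) RNA of day 6 mouse retinal organoids, which are small bodies of retina-like tissue raised in a dish from stem cells. The cells were of the wild-type Rx:GFP line and were differentiated for 6 days with AGN at 0.1 µM, with the same genotype and treatment in both libraries. The libraries form 1 group with n = 2 and were read as native RNA on nanopores, so no contrast between conditions exists and the only comparison open is between replicates and between sites. The labels do not say whether the replicates came from separate cultures. Of 7 eye-field and retinal progenitor markers 6 were listed in both libraries, whereas none of 3 liver markers (Alb, Apoa1, Ttr) and none of 3 pluripotency markers (Pou5f1, Nanog, Zfp42) was listed in either. Replicate 1 listed 26441 positions at a median coverage of 10 reads and replicate 2 listed 50099 at 12 reads.

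Cholesterol is built from acetyl-CoA through the mevalonate pathway. Its enzymes are induced together when membrane sterol runs low, because the transcription factor SREBP2 is then released from the endoplasmic reticulum, and INSIG1 is one of the proteins that hold it back. N6-methyladenosine (m6A) is the most common internal modification of mRNA and is written mainly by METTL3 with METTL14. It is read by proteins that can change the decay, splicing or translation of the transcript.

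Each listed position comes with a motif of 5 bases, written in DNA letters, and these motifs are the only sequence the tables give around a site. They are shown here because levels differ between motifs across the whole table. The capital marks the central A, the base that carries the methyl group in the m6A consensus.
Motif ending in A: ggAca
Motif starting with A: agAct
Motif starting with G and ending in T: ggAct
Motif ending in C: ggAcc

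The 34 sites were spread over the whole scale of the fraction modified, a deposited value between 0 and 1 for each position. The reads given beside a fraction are the coverage of the position, which is not its denominator; the denominator is not stated. In replicate 2 the fraction ran from 0 to 1.00 with a median of 0.269, against a median of 0.345 over all 16212 sites. At or above 0.5 lay 10 of the 34 sites (29.4%), against 37.5% of all sites. Both libraries put 7 of the 24 shared sites (29.2%) at or above 0.5, against 36.0% of all 5221 shared sites, and 15 of the 24 (62.5%) below it, against 56.3%. These shares lie near the background, and the differences from it were not tested. The median over the 24 shared sites was 0.273 in replicate 1 and 0.246 in replicate 2.

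By motif, 21 of the 34 sites (61.8%) were GGACA, a motif that made up 35.6% of all sites. AGACT accounted for 7 sites (20.6%, against 18.1%), and GGACT and GGACC for 3 each (8.82%, against 24.2% and 22.1%). GGACA is the motif with the highest levels in these tables, with a median of 0.667 over 5773 sites, and the 21 GGACA sites of the 7 genes had a median of 0.311. Of these, 14 (66.7%) were below the median of all GGACA sites, where 49.5% of all GGACA sites lie. They were 4 of 7 in Scd2, 3 of 5 in Sqle, 3 of 4 in Fdps, 2 of 3 in Hmgcs1 and the single sites of Fdft1 and Insig1. At the other end, 4 of the 21 were at or above 0.9 (19.0%, against 24.2% of all GGACA sites), in Scd2, Sqle and Fdps. Outside GGACA, 2 of 13 sites (15.4%) reached 0.5, against 22.8% of all such sites, and both were AGACT sites, in Sqle and Hmgcs1.

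**Figure D1:**
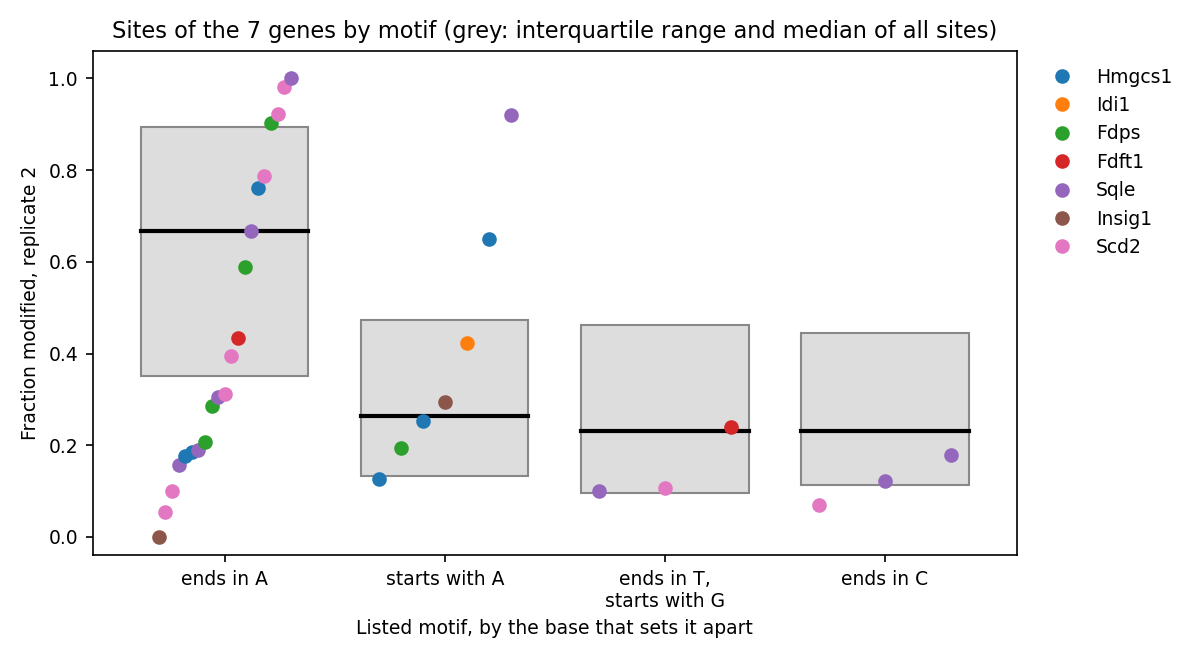
The vertical axis is the fraction modified in replicate 2, and each point is a site with at least 20 reads, coloured by gene and spread sideways in order of level within its motif class. Grey boxes and black lines give the interquartile range and the median of all sites of that class. The class that ends in A is GGACA, where the 21 points run from 0 to 1.00 and 14 lie below the black line at 0.667.

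Hmgcs1 encodes the cytosolic HMG-CoA synthase, which condenses acetyl-CoA with acetoacetyl-CoA at the entry of the mevalonate pathway. The gene is listed on chromosome 13, 120151915 to 120169796 (here and below as the deposited tables give it, with no build stated), and its reads were assigned to transcript ENSMUST00000179869.1. It had 6 sites in replicate 2, between positions 1400 and 2490, with 139 to 183 reads. Low levels filled the stretch up to position 2299, and the 2 sites at the 3′ side were high.

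At position 1400 (AGACT) the fraction was 0.087 in replicate 1 (31 reads) and 0.126 in replicate 2 (139 reads). At position 1569 (AGACT) it was 0.296 (35 reads) and 0.253 (143 reads). The difference between these AGACT sites, 0.209 and 0.126, was larger than the replicate difference of either. At position 1700 (GGACA) the values were 0.0588 (35 reads) and 0.176 (151 reads), and at position 2299 (GGACA) they were 0.167 (44 reads) and 0.185 (175 reads). Those 2 GGACA sites could not be told apart within the replicate difference of 0.117. Position 2490 (GGACA) had 0.707 (50 reads) and 0.760 (183 reads), which is 0.541 and 0.575 above position 2299 of the same motif. Position 2468 (AGACT), 22 nt before it, had 0.650 at 183 reads in replicate 2 and was not listed in replicate 1, although the neighbour had 50 reads there. It was at the percentile 87.9 of all AGACT sites of replicate 2. Over the 5 shared sites the mean fraction was 0.282 ± 0.0260 (SD, n = 2).

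Idi1 encodes the isopentenyl diphosphate isomerase, which supplies dimethylallyl diphosphate to the chain-building steps. It lies on chromosome 13, 8935537 to 8942487, and had a single listed position, 2669 of ENSMUST00000169314.8, an AGACT. The fraction was 0.632 in replicate 1 (52 reads) and 0.423 in replicate 2 (118 reads), a mean of 0.528 ± 0.147 (SD, n = 2). The libraries disagreed here by 0.208, the largest difference among the 24 shared sites. It was the single one of the 24 beyond 0.2 (4.17%, against 5.94% of all shared sites). Where both libraries had 50 reads or more it was 1 of 9, against 1.09% of all 1827 such sites. Both values were above the median of all AGACT sites of replicate 2, which was 0.263.

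Fdps encodes farnesyl diphosphate synthase, which joins the isoprene units into the common precursor of sterols, dolichol and prenyl groups. It lies on chromosome 3, 89000895 to 89009266. On transcript ENSMUST00000081848.12 all 4 sites were shared, with 45 to 46 reads in replicate 1 and 78 to 86 in replicate 2. One site was high and the others low. Position 463 (GGACA) had 0.825 in replicate 1 and 0.903 in replicate 2. Position 223 (GGACA), 240 nt before it, had 0.250 and 0.206, and position 912 (GGACA) had 0.333 and 0.286. All 3 pairs among these GGACA sites differed by more than the replicate differences of their members. Position 635 (AGACT) had 0.194 in both libraries. The mean of the 4 sites was 0.399 ± 0.00223 (SD, n = 2).

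Reads of Fdps were also assigned to a second transcript, ENSMUST00000196709.4, with fewer reads. Its positions 780 (AGACT) and 1057 (GGACA) are each 145 nt beyond positions 635 and 912 of the first transcript and carry the same motifs. At position 1057 the fraction was 0.583 in replicate 1 (13 reads) and 0.588 in replicate 2 (21 reads), higher than the 0.333 and 0.286 at position 912. At position 780 it was 0 (9 reads) and 0.0909 (17 reads). The remaining position, 231 (GGACA), had a fraction of 1 at 5 reads in replicate 2 and no listed counterpart at that offset. The shared offset of the pair was found after the values were seen. Whether the paired positions are the same base of the gene was not tested, and how reads were divided between isoforms is not given in the sources used here.

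Fdft1 encodes squalene synthase, the first enzyme committed to sterols. It lies on chromosome 14, 63382599 to 63417027, and replicate 2 listed 2 positions of transcript ENSMUST00000054963.9. Position 384 (GGACT) had 0.191 in replicate 1 (27 reads) and 0.240 in replicate 2 (51 reads). Position 1115 (GGACA) had 0.565 (33 reads) and 0.433 (66 reads). The second was the higher of the pair in each library, and the mean was 0.357 ± 0.0291 (SD, n = 2).

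Replicate 1, the shallower library, listed 4 further positions of Fdft1 with at least 20 reads that replicate 2 did not list. The fractions there were 0.417 at position 204 (GGACA, 26 reads), 0.462 at 519 (GGACA, 29 reads), 0.815 at 1384 (GGACC, 35 reads) and 0.111 at 1445 (GGACT, 34 reads). The value of 0.815 was at the percentile 95.1 of all GGACC sites of replicate 1 and has no counterpart in the other library. Replicate 2 had 51 and 66 reads at the 2 positions it listed on this transcript. The same happened once in Sqle, at position 2140, so 5 positions in all were listed with the minimum in replicate 1 and not at all in replicate 2. Conversely, 2 of the 34 sites of replicate 2 were not listed in replicate 1, and 8 were listed there with fewer than 20 reads.

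Sqle encodes squalene epoxidase, which adds the oxygen that lets squalene close into the sterol ring system and is a rate-limiting step of the later pathway. It lies on chromosome 15, 59186926 to 59203041, and had 9 sites in replicate 2 on transcript ENSMUST00000022977.13, with 40 to 58 reads. Its shared sites at 1567 and 2730 were high, and their order turned between libraries. Position 1567 (AGACT) had 0.727 in replicate 1 (24 reads) and 0.920 in replicate 2 (54 reads). That placed it at the percentiles 90.6 and 99.1 of AGACT sites in the respective libraries. At position 2730 (GGACA) the values were 0.800 (25 reads) and 0.667 (57 reads). The GGACC sites at 1918 and 2573 were low and close between libraries, with 0.130 and 0.122 at the former and 0.191 and 0.180 at the latter. The mean of these 4 sites was 0.467 ± 0.00714 (SD, n = 2). That SD is small because a rise of 0.193 at position 1567 and a fall of 0.133 at position 2730 partly cancel in the mean.

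The 5 sites on the 5′ side of Sqle had only 14 to 17 reads in replicate 1. Position 154 (GGACA) had a fraction of 1 in each library, at 14 and 40 reads. The next sites were lower: position 391 (GGACA) had 0.286 and 0.304, and position 772 (GGACT) had 0 and 0.100. Between them, positions 528 and 658 (both GGACA) were at 0.191 and 0.158 in replicate 2 with 46 reads each, and at 0.400 and 0.556 in replicate 1 with 16 reads each. Those gaps of 0.210 and 0.398 were seen at low coverage, and these sites are not ranked.

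Insig1 encodes the sterol-sensing anchor that keeps the SREBP escort SCAP in the endoplasmic reticulum. It lies on chromosome 5, 28276361 to 28283660, and was the shallowest of the 7 genes, with 8 listed positions on ENSMUST00000059155.10 and 25 reads at most. Its 2 sites in replicate 2 were position 2139 (GGACA), with a fraction of 0 at 23 reads, and position 2357 (AGACT), with 0.294 at 25 reads. The replicate 2 value puts position 2139 at the percentile 0.598 of GGACA sites in that library. In replicate 1 this position was also at 0, at 13 reads. Position 2357 was not listed in replicate 1. No mean is given, as no site had 20 reads in both. Its 6 other positions had 7 to 16 reads in the libraries that listed them, with fractions from 0 to 0.750.

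Scd2 encodes a stearoyl-CoA desaturase, the enzyme that makes monounsaturated fatty acids, in the isoform prominent in brain and embryo. It lies on chromosome 19, 44282113 to 44295303, and was the deepest of the 7 genes, with 9 sites in replicate 2 on ENSMUST00000026221.5 at 55 to 356 reads. High and low sites alternated along the transcript in the same places in both libraries. High were position 3688 (GGACA), with 0.928 in replicate 1 (89 reads) and 0.981 in replicate 2 (235 reads), and position 3946 (GGACA), with 0.963 (95 reads) and 0.921 (264 reads). Position 4995 (GGACA) followed with 0.830 (133 reads) and 0.788 (341 reads). The order of the first pair turned between libraries, while position 4995 was below both in each.

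Low were position 2742 (GGACA), with 0.0652 (58 reads) and 0.100 (172 reads), and position 4365 (GGACA), with 0.0698 (106 reads) and 0.0542 (293 reads). Position 4560 (GGACC) had 0.0515 and 0.0691 at 114 and 306 reads, and position 5299 (GGACT) had 0.108 and 0.106 at 149 and 356 reads. Between the GGACA sites at 3946 and 4365, which are 419 nt apart, the fraction differed by 0.893 in replicate 1 and 0.867 in replicate 2. The largest replicate difference of that pair was 0.0419. Position 1931 (GGACA) was intermediate, with 0.474 (32 reads) and 0.311 (106 reads), as was position 565 (GGACA), with 0.250 (12 reads) and 0.395 (55 reads). Replicate 1 alone listed position 791, with a fraction of 1 at 13 reads. The mean of the 8 shared sites was 0.426 ± 0.0141 (SD, n = 2).

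**Figure D2:**
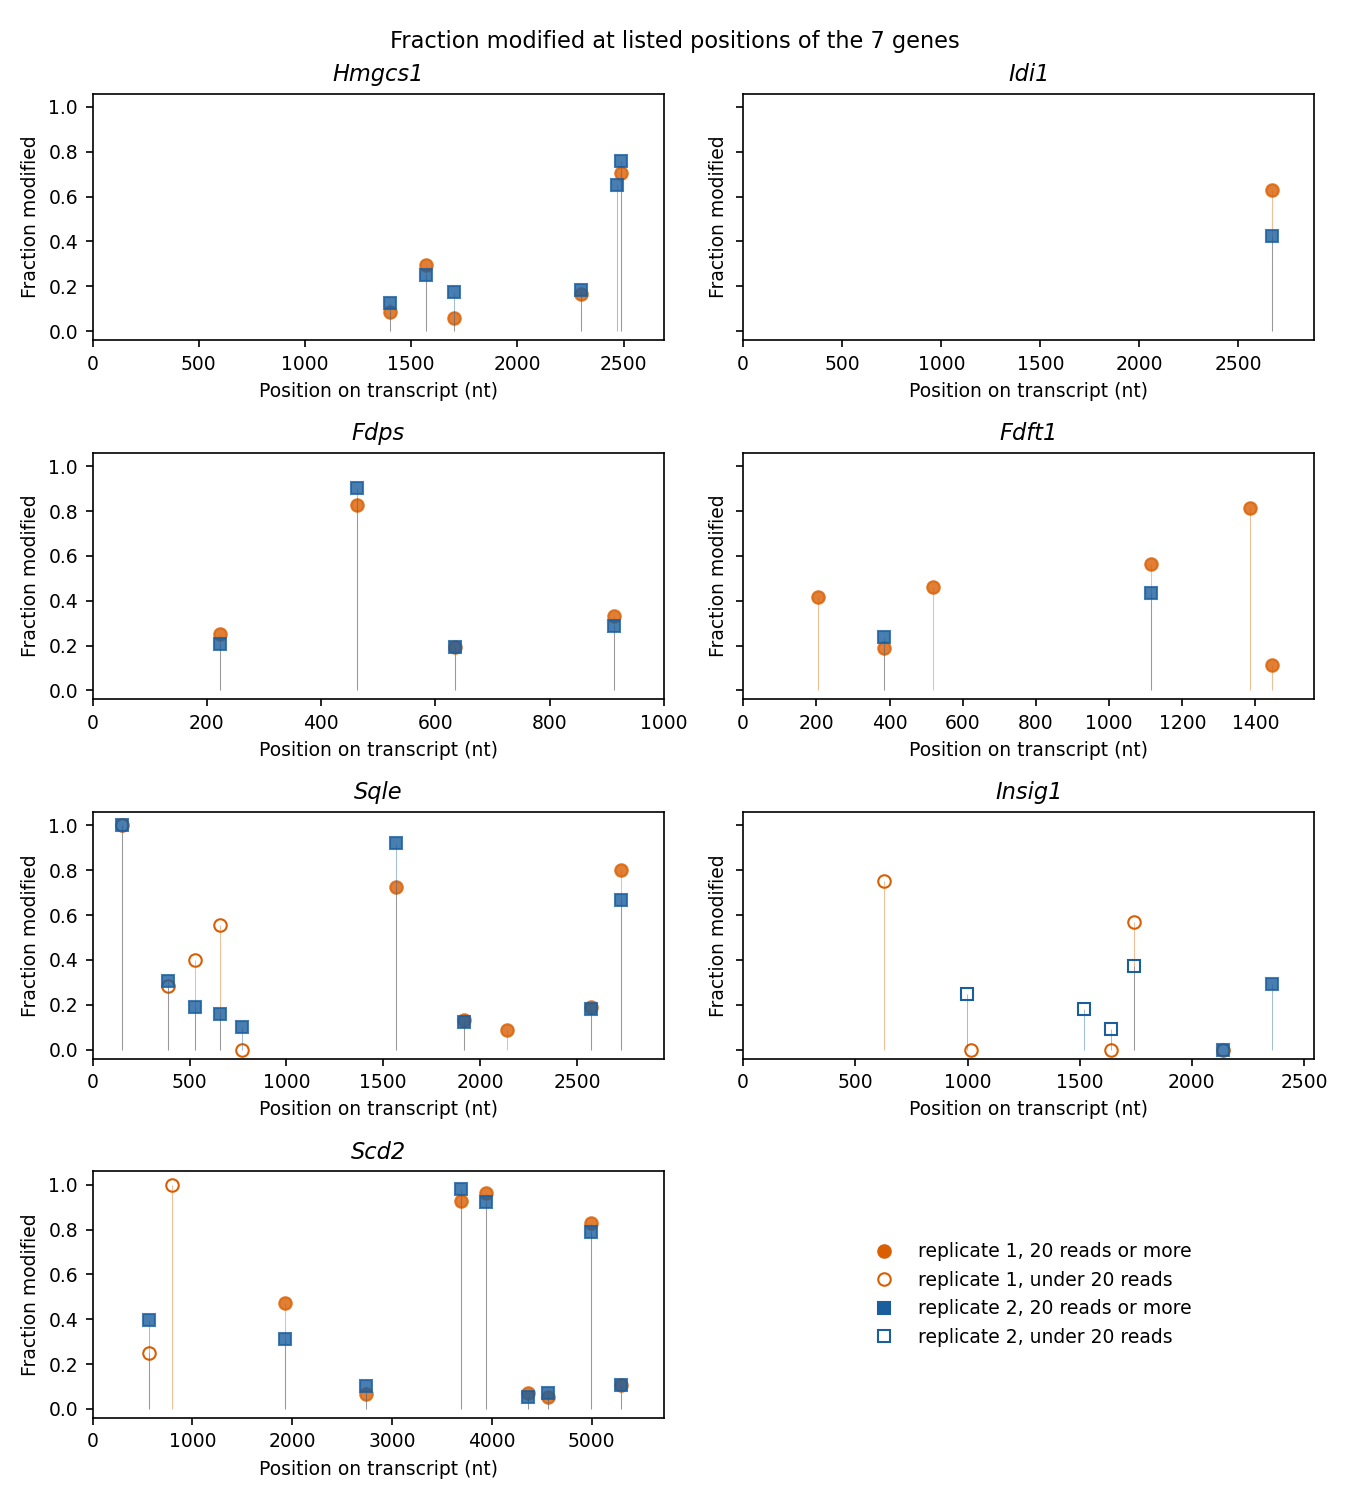
Each panel plots the fraction modified (vertical axis, 0 to 1) against the position on the transcript in nucleotides for 1 gene; for Fdps the deeper transcript is drawn. Orange circles are replicate 1 and blue squares replicate 2, filled with 20 reads or more and open below that. The Scd2 sites at 3688, 3946 and 4995 stand at 0.788 or higher in both libraries, with sites near or under 0.1 between and around them, and the Hmgcs1 sites are high only at 2468 and 2490.

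Sites of 1 motif on 1 transcript often stood at different levels. Among the 24 shared sites there were 23 pairs of the same motif on the same transcript. In 20 of them the sites differed in the same direction in both libraries and by more than the replicate difference of either site, where 65.8% of 2061 such pairs in the whole table did so. Of the 20, 13 were in Scd2, 3 in Fdps, 3 in Hmgcs1 and 1 in Sqle. Pairs that share a site are not independent, and the share was not tested against the background. With 2 libraries an exact paired permutation test cannot give a p-value under 0.5, so none was run on any of these differences.

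Replicate error at the 24 sites was close to that of the table. The median absolute difference was 0.0437, against 0.0517 over 5221 shared sites. Replicate 2 was higher at 11 sites and lower at 13. Except in Idi1, each gene mean given above joins differences in both directions, which partly cancel in its SD. By depth, the median difference was 0.0476 at the 15 sites whose lower coverage was 20 to 49 reads, 0.0527 at the 5 sites with 50 to 99 and 0.0166 at the 4 sites with 100 or more, all in Scd2. Over all sites these values were 0.0643, 0.0437 and 0.0245, so the middle class was the one in which the members differed more between libraries. The 5 differences in that class were 0.0348, 0.0419, 0.0527, 0.0537 and, in Idi1, 0.208. The Scd2 values rest on the most reads, and the shared Sqle and Fdft1 sites had 24 to 33 reads in replicate 1.

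**Figure D3:**
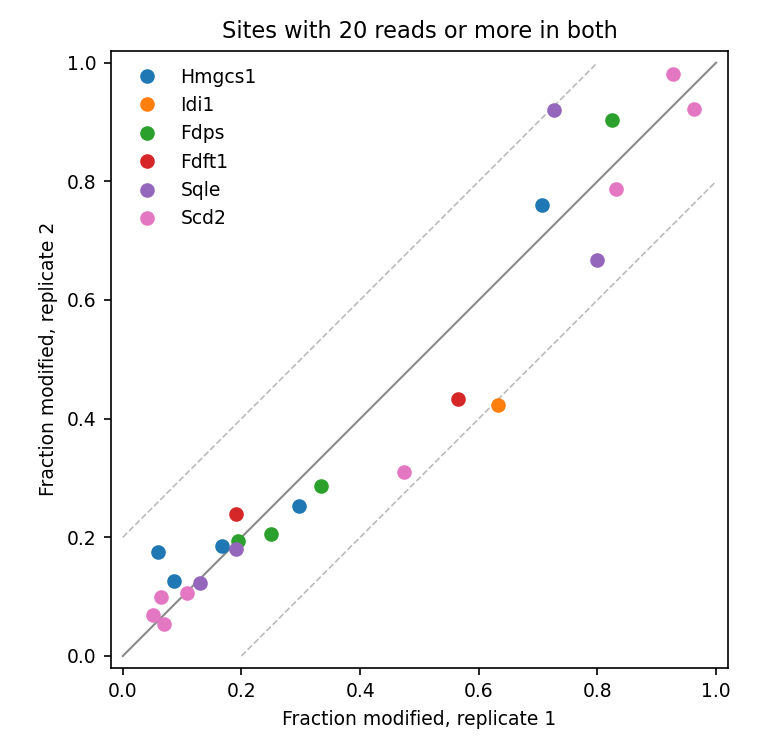
The horizontal axis is the fraction modified in replicate 1 and the vertical axis that in replicate 2, for the 24 sites with at least 20 reads in both, coloured by gene. The solid line marks equal values and the dashed lines a difference of 0.2. Idi1 lies just past the lower dashed line at 0.632 and 0.423, and all other sites lie between the dashed lines.

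Coverage carries the abundance of the reads assigned to each transcript, in which fewer cells with the transcript and less RNA per cell cannot be told apart. Direct RNA reads begin at the poly(A) tail, and coverage was higher towards the 3′ end. In Scd2 replicate 2 had 55 reads at position 565 and 356 at position 5299, a ratio of 6.47. In Sqle, Hmgcs1 and Fdps the ratio of the last to the first site was 1.43, 1.32 and 1.10. All 4 were above 1, as were 83.3% of 1845 transcripts with at least 4 sites, whose median ratio was 1.23. The 5′ sites of Scd2 and Sqle were among those with fewer than 20 reads in replicate 1.

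Replicate 2 was deeper than replicate 1 by a different factor for each gene. Over 2101 transcripts with a shared site, the coverage ratio of replicate 2 to replicate 1 (median over the sites of a transcript) had a median of 1.93, and 5% of transcripts were above 3.10. Fdps had a ratio of 1.79, Fdft1 1.94, Sqle 2.20, Idi1 2.27 and Scd2 2.72. In Hmgcs1 it was 4.09, and each of its 5 shared sites had between 3.66 and 4.48 times the reads in replicate 2. Of the 6 members with a shared site it was the single one at or above 3, where 6.33% of all transcripts lie, and 7 of the 2101 transcripts, itself included, reached its value. Over all listed positions the same ratio was at the percentile 96.0 of 6204 transcripts.

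The ratio moved with position in the whole table, from a median of 1.76 at sites up to position 500 to 2.54 beyond position 3000. Within Scd2 it ran the other way, from 3.31 at position 1931 to 2.39 at position 5299 among shared sites, and in Hmgcs1 it was 4.48 at position 1400 and 3.66 at position 2490. In Fdps it was 1.70 at position 223 and 1.87 at position 912. In the range of positions of the Hmgcs1 sites, 1400 to 2490, the median over 1273 single sites was 2.18 and the 95th percentile 3.35. The 5 shared Hmgcs1 sites, from 3.66 to 4.48, were all above that percentile. Of 671 transcripts with a shared site in that range, 4, Hmgcs1 included, had a transcript ratio at least as large as its 4.09. This ratio rests on 1 library on each side and has no replicate check. The fractions of Hmgcs1 differed between the libraries by at most 0.117.

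**Figure D4:**
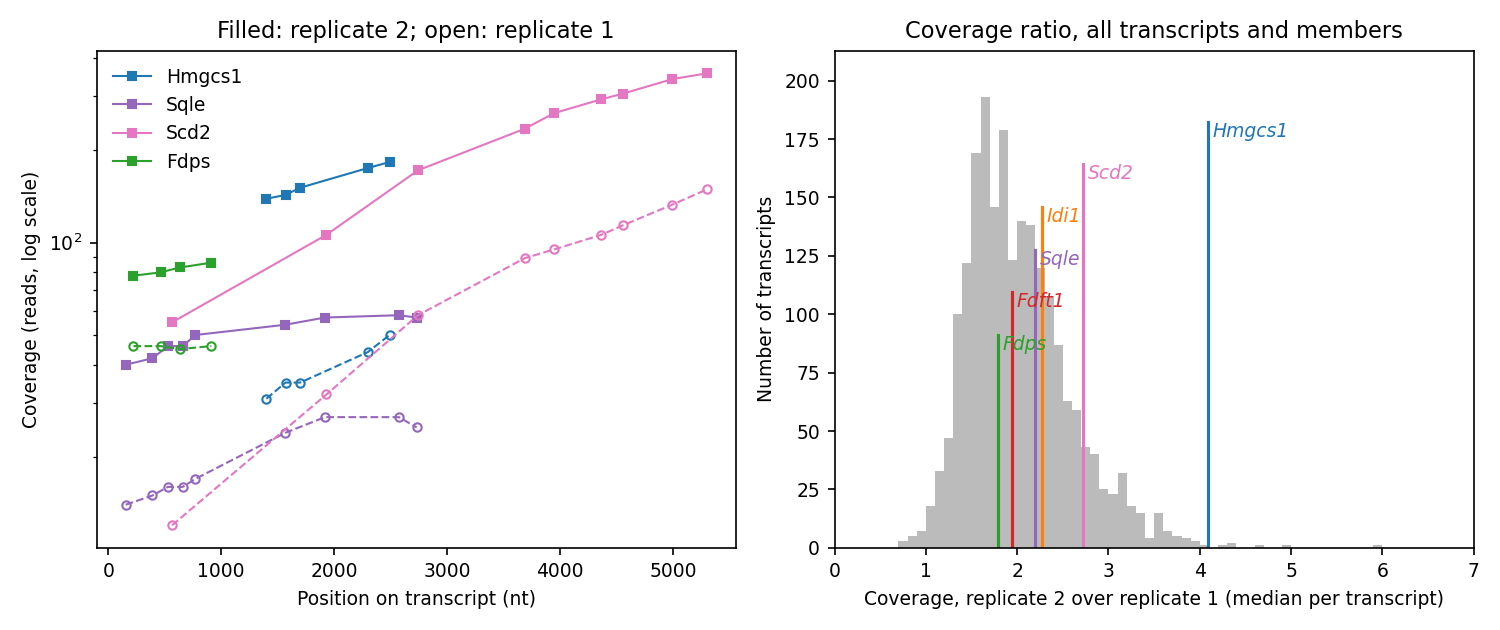
Left, coverage in reads on a log axis against position on the transcript for the 4 members with at least 4 sites, with filled squares for replicate 2 and open circles for replicate 1, at positions listed in both. Right, the number of transcripts (vertical axis) by their coverage ratio of replicate 2 over replicate 1 (horizontal axis) for all 2101 transcripts, with coloured lines at the 6 members that have a shared site, the line height carrying no value. Hmgcs1 stands at 4.09, to the right of nearly all transcripts.

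The remaining genes of these pathways were taken from a list of 37 other genes. In replicate 2, 33 of them were listed and 19 had a site, where 48.6% of all listed genes had one, and 9 had one shared by both libraries. Among sterol synthesis enzymes these numbers were 9 and 5 of 15, among the genes of sterol sensing and uptake 3 and 0 of 9, and among those of fatty acid synthesis and desaturation 7 and 4 of 13. Not listed at all were Tm7sf2, Hsd17b7, Fads2 and Tecr. The 119 sites of these genes in replicate 2 had a median fraction of 0.366, against 0.345 over all sites, with 36.1% at or above 0.5, against 37.5%, and 42.9% were GGACA, against 35.6%.

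Of these genes Cyp51, the lanosterol demethylase, had the most shared sites, 6 with a mean of 0.380 ± 0.0312 (SD, n = 2). Acat2, the cytosolic thiolase that makes acetoacetyl-CoA for Hmgcs1, averaged 0.670 ± 0.0267 (SD, n = 2) over 5 sites. Its GGACA sites were mostly high, with 0.983 (59 reads) and 1 (100 reads) at position 812. Hsd17b12, a reductase of fatty acid elongation, averaged 0.204 ± 0.0265 (SD, n = 2) over 4. Msmo1, the sterol C4-methyl oxidase, averaged 0.364 ± 0.0183 (SD, n = 2) over 3, and as in Scd2 its GGACA sites stood far apart, at 0.0926 and 0.0909 for position 765 and 0.919 and 0.945 for position 1136. Fasn, the fatty acid synthase, averaged 0.256 ± 0.00555 (SD, n = 2) over 2. Means of genes differ in their mix of motifs and are not a ranking. Srebf2, the gene of SREBP2 itself, had 9 sites in replicate 2 with a median of 0.559 and at most 61 reads, and none in replicate 1, where it had at most 15.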

How the data were processed

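Direct RNA libraries (RNA002 chemistry, about 48 h on a flow cell each, 1 µg of poly(A) RNA, per the labels' protocols) gave 1 table of plus and 1 of minus positions per library. The fraction modified was deposited by the authors as a fraction from 0 to 1, and the coverage as a whole-number count of reads, at least 5 at every listed position. Base caller, aligner, modification caller and any threshold are not given in the sources used here. The denominator of the fraction is unknown: 18.1% of the 83 fractions of the 7 genes are whole multiples of 1 over the coverage (tolerance 0.00005 per read), so no read counts, intervals or tests were made from fractions. The submitters' processing notes name mm10. The deposited gene starts of all 7 genes lie over 1000 bases from those of GRCm38.p6 in RefSeq, so the build of the coordinates is unclear. Placement in coding or untranslated sequence was not analysed here, as no transcript annotation was used. No member is in the minus tables.

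Positions were matched on transcript and position with pandas 2.3.3 in Python 3.11.15. The end of each interval was used as the position. Sites needed 20 reads: just inside were 21, 23 and 25 reads in replicate 2, just outside 17. The join and coverage ratio were tested on simulated data. Named are the 7 genes with all their sites, and the 5 other pathway genes with the most shared sites (ties by coverage). Srebf2, Acaca, Mbtps1, Elovl1, Stard4, Mvd and the genes given as not listed were named outside this rule, after their values were seen. Genes and lists were chosen with earlier results of these data known. The coverage ratio, the same-motif pairs and the counts against the GGACA median were added after seeing the data. Values of some genes of the lists are not reported here.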

Additional observations from a re-analysis of the deposited data

How the results depend on the processing

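Of 71 alternative values 60 stayed within the spread between replicates, between sites or within 1.5 times a count, and 11 moved. The cause was not tested unless the setting itself gives it. Some values could not move. Dropping a replicate always shifts a gene mean by less than its SD between replicates, and 1 transcript per gene left the shared sites of every gene unchanged. The count of 60 is therefore no measure of how robust the results are. The median fraction of the 34 sites was 0.269 and became 0.250 with 10 reads; it ran from 0.269 without replicate 1, over the same 34 sites, to 0.296 without replicate 2, over the 29 sites of replicate 1, so library and sites change together. On the 24 shared sites the medians were 0.273 in replicate 1 and 0.246 in replicate 2. Other pathway genes with a site numbered 19, and 11 with 50 reads or 33 without a minimum. Of 24 shared sites 9 kept 50 reads in each replicate. With that minimum Hmgcs1 kept 1 site, so its mean became 0.734 in place of 0.282 and its coverage ratio 3.66 in place of 4.09. With 10 reads in each replicate the mean of Fdps was 0.436 in place of 0.399, as its second transcript entered, and that of Sqle 0.429 in place of 0.467; weighted by coverage, Sqle had 0.456. The coverage ratio of Sqle was 2.80 over all listed positions in place of 2.20. Matching within 5 nt and 1 transcript per gene each left 24 shared sites. No paired analysis was possible because the samples form 1 group with no conditions to pair; sites were compared within each library. Low depth in replicate 1 limits Insig1, the second Fdps transcript and the 5′ part of Sqle, which had under 20 reads there. The alternatives for the coverage ratio were chosen after seeing the data.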

Other observations

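The coverage ratio of replicate 2 to replicate 1 was also read for the other genes of the pathway, over all positions listed in both libraries (at least 5 reads), since few had 20 reads in replicate 1. This was done after the value of Hmgcs1 had been seen. Of 26 transcripts of 23 of these genes, 11 (42.3%) were at or above 3, against 17.2% of 6204 transcripts, while their median of 2.16 was near the 2.00 of all transcripts. Of the 8 transcripts of the 7 genes of the report, 1 (12.5%) was at or above 3 on the same count. Among the high ones were Srebf2 with 5.27, Acaca with 4.83 and Fasn with 4.15. The lowest was 1 transcript of Mbtps1 with 0.857, while its other transcripts had 1.56 and 2.44, so transcripts of 1 gene can differ widely here. Also low were Elovl1 with 1.00, Stard4 with 1.34 and Mvd with 1.42. With at least 20 reads in both, 0 of 9 other genes reached 3. The ratio also moved with position on the transcript in the whole table, and the part of transcript length in these values was not tested.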
